A study of Mus musculus with 14 samples.

Results

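The regions described here are the binding sites of TAF9B at gene ends at which no RNA polymerase II (POL2) peak was called. They were chosen by the peak calls themselves: a TAF9B peak was taken when it shared no base with any POL2 peak and its midpoint lay within 500 bp of either end of a locus in the RNA table. The rule found 1255 regions among 10415 TAF9B peaks, which is 12.05% of all TAF9B peaks (95% Wilson interval 11.4 to 12.7) and 18.1% of the 6946 TAF9B peaks without POL2. They are called TAF9B-only ends below. The closest class is the 2602 TAF9B peaks at gene ends that did overlap a POL2 peak, called TAF9B-POL2 ends, and a further 5691 TAF9B-only peaks lay away from gene ends. Lack of overlap with a POL2 peak, distance to a locus end and the choice of the regions are therefore descriptions and not results. The word only says that no POL2 peak was called there, not that POL2 was absent.

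TAF9B is a paralog of TAF9, a histone-fold subunit that is shared by TFIID, the general factor that recognises core promoters, and by SAGA, a coactivator complex that acetylates histones. POL2 engaged at an active promoter usually gathers close to the transcription start site, and the 8WG16 antibody used for the POL2 ChIP recognises mainly the form of the enzyme whose C-terminal repeats carry little phosphate. In the developing spinal cord, Sonic hedgehog and retinoic acid specify motor neuron progenitors, and proneural bHLH factors such as Neurog2 then drive their exit from the cell cycle.

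Both ChIP libraries came from wild-type C57BL/6 mouse ES cells of the HBG3 clone, which carries GFP under the motor neuron promoter of Mnx1, after differentiation in embryoid bodies (EB) with retinoic acid and the Sonic hedgehog agonist SAG. There was 1 TAF9B and 1 POL2 library, and an IgG control library was not analysed here. RNA came from other cells: the C57BL/6 JM8 clone, wild type, and the Taf9b_BG10 clone, TAF9B -/-, as ES cells and as EB at days 2, 4 and 6, each line being 1 clone given the same differentiation, and from C57BL/6 newborn spinal column of both genotypes and newborn spinal cord, wild type; the labels give the same clone names for the tissues. How many animals each tissue library held is not given in the sources used here. Each group was 1 library, so no difference below has a replicate check and no test was made. Intervals are 95% Wilson intervals over regions or genes and cover counting error only. In such bulk RNA, fewer cells of a type and less RNA per cell cannot be told apart.

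The labels were checked on Taf9b itself before any direction was read. In the library labelled WT it was at 0.537 FPKM (fragments scaled to transcript length and library size) in ES cells, 0.516 at EB day 2, 1.96 at EB day 4 and 1.37 at EB day 6. Under the label KO it was at 3.06, 4.08, 4.27 and 4.01 FPKM at the same stages. The targeted gene was thus higher in all 4 cultured libraries labelled KO, against their label, while in newborn spinal column it was at 6.65 FPKM under the label WT and 3.31 under the label KO. FPKM over the whole gene does not tell which part of it the reads came from. For this reason directions below follow the labels alone, as the KO-labelled value over the WT-labelled value. All 7 motor neuron markers, Isl1 among them, and all 6 neuronal markers examined were lower past 2-fold under the label KO at EB day 6 (summed FPKM 78.3 and 3.36 for motor neurons, 802 and 108 for neurons), 5 of 5 progenitor markers were lower (109 and 13.8), and 4 of 4 pluripotency markers (293 and 823) and 3 of 3 markers of simple epithelium (125 and 1033) were higher. Markers of other cells were low or mixed at EB day 6: the summed FPKM was 2.33 and 3.82 for 3 astrocyte genes, of which Aqp4 was at 0.00940 and 0.00648, and 6.90 and 21.2 for 3 endothelial genes, of which Pecam1 (6.25 and 19.4), also a gene of ES cells, and Cdh5 (0.159 and 1.44) were higher past 2-fold. The third endothelial gene, Kdr, went the other way, at 0.487 and 0.376 FPKM. The 3 oligodendrocyte genes summed to 11.5 and 5.17 FPKM, nearly all of it Mbp, with Mog at 0.0810 and 0.115.

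The sequences under some of the peaks are shown first, as examples. They were picked by gene and are not a sample of the 1255 regions. Each is the longest stretch of the peak that holds no annotated exon, read from mm9 on the strand of the named gene. Capitals mark matches, on either strand, to CCAAT (the core of the NF-Y box), GGGCGG (the GC box), CCGGAAG (an ETS-type site), CAGCTG or CATCTG (E-boxes, the sites of bHLH factors) or TATAAA. The first 2 lie at the highest-scoring TAF9B-only ends, namely that of Ccdc85a and the shared promoter of the divergent genes Rpgrip1l and Fto.
Ccdc85a, chr11:28484325-28484516, minus strand: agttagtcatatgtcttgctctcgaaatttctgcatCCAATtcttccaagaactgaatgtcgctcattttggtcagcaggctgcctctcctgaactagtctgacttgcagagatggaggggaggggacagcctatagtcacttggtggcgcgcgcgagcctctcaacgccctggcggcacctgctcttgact
Rpgrip1l, chr8:93837162-93837430, minus strand: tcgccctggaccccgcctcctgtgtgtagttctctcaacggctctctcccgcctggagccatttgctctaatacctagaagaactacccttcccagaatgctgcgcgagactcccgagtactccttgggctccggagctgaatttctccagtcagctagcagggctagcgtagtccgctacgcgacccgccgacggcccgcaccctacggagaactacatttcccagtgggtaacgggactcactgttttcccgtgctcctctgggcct

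The next 4 lie at genes of the neural program, and the fifth at Pcna, the sliding clamp of DNA replication. Neurog2 and Ptf1a are proneural bHLH factors, Isl1 is the LIM homeodomain factor of motor neurons, and Mfng is a glycosyltransferase that modifies Notch.
Neurog2, chr3:127335508-127335772, plus strand: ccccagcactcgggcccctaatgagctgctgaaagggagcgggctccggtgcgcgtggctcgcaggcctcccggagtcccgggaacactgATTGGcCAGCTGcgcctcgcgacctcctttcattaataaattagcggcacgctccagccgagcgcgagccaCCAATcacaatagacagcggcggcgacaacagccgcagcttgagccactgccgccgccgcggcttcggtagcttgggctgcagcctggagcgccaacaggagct
Ptf1a, chr2:19367072-19367289, plus strand: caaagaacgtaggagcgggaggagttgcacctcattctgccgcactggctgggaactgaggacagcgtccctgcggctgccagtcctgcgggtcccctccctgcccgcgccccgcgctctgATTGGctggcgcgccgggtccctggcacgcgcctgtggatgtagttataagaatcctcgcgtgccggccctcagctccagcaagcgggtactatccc
Isl1, chr13:117099897-117100077, minus strand: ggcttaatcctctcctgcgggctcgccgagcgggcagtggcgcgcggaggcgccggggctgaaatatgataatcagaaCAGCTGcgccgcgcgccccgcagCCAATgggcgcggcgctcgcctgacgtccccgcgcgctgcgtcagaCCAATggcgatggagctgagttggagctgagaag
Mfng, chr15:78603906-78604032, minus strand: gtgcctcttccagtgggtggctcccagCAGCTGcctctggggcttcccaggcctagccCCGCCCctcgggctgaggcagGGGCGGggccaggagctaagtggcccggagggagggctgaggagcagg
Pcna, chr2:132078339-132078551, minus strand: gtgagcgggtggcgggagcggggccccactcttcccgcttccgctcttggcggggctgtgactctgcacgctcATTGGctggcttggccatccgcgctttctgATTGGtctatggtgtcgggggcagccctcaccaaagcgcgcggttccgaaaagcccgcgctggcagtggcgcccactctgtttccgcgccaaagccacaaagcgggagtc

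NF-Y boxes stood in the stretches of Ccdc85a (1), Neurog2 (2), Ptf1a (1), Isl1 (2) and Pcna (2), and the stretch between Rpgrip1l and Fto held none of the marked motifs. The CAGCTG E-box stood in those of Neurog2, Isl1 and Mfng, and a GC box in that of Mfng alone, where there were 2. In 300 bp windows at all 1255 regions the GC box was the more frequent, at 58.2% against 49.2% for CCAAT. For contrast, the next stretches lie at TAF9B-POL2 ends of ribosomal protein genes, and were picked because they hold the ETS-type site.
Rps6, chr4:86503317-86503467, minus strand: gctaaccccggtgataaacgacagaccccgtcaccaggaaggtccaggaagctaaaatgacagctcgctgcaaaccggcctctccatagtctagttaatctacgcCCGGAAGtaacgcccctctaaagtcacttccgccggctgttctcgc
Rpl8, chr15:76734358-76734500, plus strand: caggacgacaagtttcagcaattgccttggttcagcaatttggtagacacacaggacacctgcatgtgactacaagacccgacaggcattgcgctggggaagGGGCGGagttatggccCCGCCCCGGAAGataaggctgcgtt

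Most TAF9B-only ends were promoters. A GENCODE transcript start lay within 500 bp of 1154 of the 1255 midpoints (92.0%, interval 90.3 to 93.3), a 3′ end alone at 71 (5.66%) and neither at 30 (2.39%). At TAF9B-POL2 ends these shares were 97.8%, 0.653% and 1.58%. Of the 1154 peaks with a start, 71.7% had their midpoint upstream of it, and the median midpoint lay 32.0 bp upstream (quartiles -81.9 and 4 bp). TAF9B-POL2 ends had a median offset of -24.5 bp with 71.4% upstream, so both classes sat at nearly the same place relative to the start. Midpoints within 100 bp of a start made up 64.9% of TAF9B-only ends (62.2 to 67.5) and 77.4% of TAF9B-POL2 ends (75.7 to 78.9). Starts on both strands within 500 bp, divergent or not, were seen at 110 TAF9B-only ends (8.76%, 7.32 to 10.5) and at 429 TAF9B-POL2 ends (16.5%, 15.1 to 17.96).

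**Figure D1:**
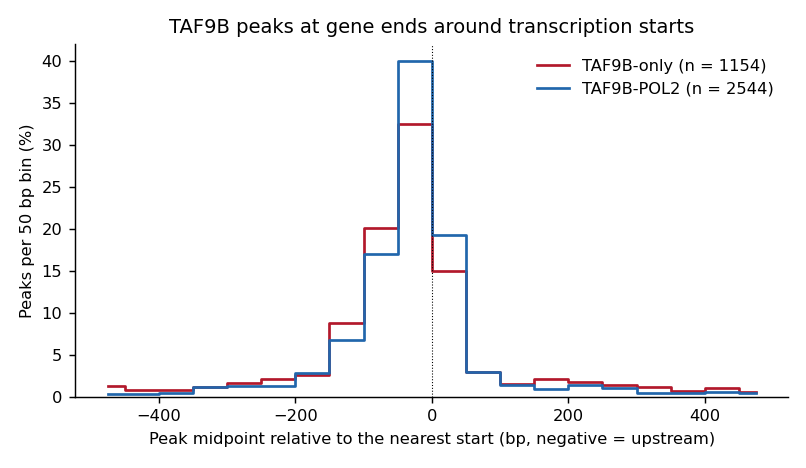
Histogram of peak midpoints relative to the nearest annotated start, in bp along transcription, as the percent of peaks in each 50 bp bin, for TAF9B-only ends (n = 1154 with a start within 500 bp) and TAF9B-POL2 ends (n = 2544). In both classes the fullest bin is the 50 bp before the start, with 32.5% of TAF9B-only and 40.0% of TAF9B-POL2 peaks.

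The peaks themselves were a little smaller than those with POL2. MACS scores, which are -10 times the log10 of the peak caller's p-value, had a median of 91.1 at TAF9B-only ends (quartiles 65.8 and 142, range 50.1 to 678), 105 at TAF9B-POL2 ends and 72.9 at TAF9B-only peaks elsewhere. The median width was 230 bp, against 252 and 199 bp. A score of at least 100 was reached by 45.3% of TAF9B-only ends (42.5 to 48.0) and 53.8% of TAF9B-POL2 ends (51.8 to 55.7), so the classes overlapped over most of their range. By chromosome, TAF9B-only ends made up from 8.43% of the TAF9B peaks of chromosome 11 (101 of 1198) to 25.7% of those of chromosome X (27 of 105).

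For most TAF9B-only ends the nearest POL2 peak was far away. The median gap was 56823 bp (quartiles 18533 and 178330 bp), and 74 regions (5.90%, 4.72 to 7.34) had a POL2 peak within 1000 bp. At TAF9B-only peaks elsewhere the share within 1000 bp was 2.88%. The regions just inside the rule lay 1 bp from a POL2 peak at Rbm45, 2 bp at Kif9 and 6 bp at Dusp28, and the TAF9B-POL2 ends with the least overlap shared 1 bp at Lman2, 4 bp at Rps26 and 7 bp at Trim45, so the border between the classes is a matter of a few bases there. At the distance limit, Asf1b, Ice1 and Gtpbp3 lay 498.5, 497.5 and 497.0 bp from an end, and Fgf9, Fam53a and Tgfb3, at 501.5, 504.0 and 505.5 bp, were left out. Beyond the end itself, 131 of the 1231 loci with TAF9B-only ends alone (10.6%) held a POL2 peak somewhere in the locus or within 500 bp of it, against 26.8% of loci with no TAF9B peak at an end, a difference that the rule partly fixes. A further TAF9B-only peak away from gene ends lay within 50 kb of 527 of these loci (42.8%, 40.1 to 45.6), of 37.3% of loci with TAF9B-POL2 ends (35.5 to 39.1) and of 31.7% of loci with no TAF9B peak at an end.

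In base composition the TAF9B-only ends were CpG-rich promoters. In 300 bp windows centred on the midpoints, the median GC content was 61.7% (62.3% at TAF9B-POL2 ends, 51.3% at TAF9B-only peaks elsewhere, 48.7% at all locus ends). An observed over expected CpG ratio of at least 0.6 was reached by 69.2% of TAF9B-only ends (66.6 to 71.7), 85.6% of TAF9B-POL2 ends (84.2 to 86.9), 13.6% of TAF9B-only peaks elsewhere and 45.0% of all protein-coding starts. The sites of TAF9B at gene ends thus resembled the TAF9B-POL2 ends in composition far more than the TAF9B-only sites elsewhere.

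The motif content, searched on both strands, set the TAF9B-only ends apart from the TAF9B-POL2 ends first by what was infrequent. The ETS-type site CCGGAAG was present in 121 of 1255 windows (9.64%, 8.13 to 11.4), against 29.1% of TAF9B-POL2 ends (27.4 to 30.9), 10.2% of all protein-coding starts and 6.58% of all locus ends. The YY1-type site AAGATGGCG was present in 12 windows (0.956%, 0.548 to 1.66), against 6.08% of TAF9B-POL2 ends (5.22 to 7.06) and 2.13% of all protein-coding starts. The CRE-type site TGACGTCA stood in 2.79% and 4.66%. The CRE-type share of all protein-coding starts was 1.82%. For the ETS-type and YY1-type sites the TAF9B-only ends were at or below the share of all starts, and the TAF9B-POL2 ends were above it.

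Of the other motifs, CCAAT and E-boxes were more frequent at TAF9B-only than at TAF9B-POL2 ends and GC boxes less so. CCAAT was found at 49.2% of TAF9B-only ends (46.4 to 51.9), 44.3% of TAF9B-POL2 ends (42.4 to 46.2) and 32.5% of all protein-coding starts. GGGCGG was found at 58.2% (55.4 to 60.9), against 64.1% and 40.9%. Among E-boxes, the palindrome CAGCTG stood at 20.1% of TAF9B-only ends (17.96 to 22.4), 16.1% of TAF9B-POL2 ends (14.7 to 17.5), 26.6% of TAF9B-only peaks elsewhere and 17.7% of all protein-coding starts. CATCTG, whose reverse complement is CAGATG, stood at 12.99%, 10.1%, 24.4% and 15.7% in the same order, and the general form CANNTG, which includes both, at 67.4%, 60.5%, 81.6% and 69.4%. The E-box shares of TAF9B-only ends were thus between those of TAF9B-POL2 ends and of TAF9B-only peaks elsewhere. TATAAA (3.98% and 4.04%) and the nuclear receptor half-site AGGTCA (8.37% and 8.04%) were alike in the classes at gene ends, and TAATTA, the core of many homeodomain sites, was at 1.91% and 1.12%. By RNA level, the CCAAT shares of TAF9B-only and TAF9B-POL2 ends were 45.7% and 45.5% at or below 1 FPKM, 49.4% and 48.4% between 1 and 10 FPKM, and 51.8% (47.0 to 56.6) and 42.5% (40.2 to 44.8) above 10 FPKM, so the difference was seen in the last alone. In windows with a CpG ratio under 0.6 CCAAT stood at 50.6% and 56.8%, the other way. CANNTG stood at 67.2% and 69.1% at or below 1 FPKM, also the other way, and at 65.5% and 59.3% above 10 FPKM. GGGCGG stood at 63.4% and 64.2% above 10 FPKM, and at 68.7% and 66.2% among windows with a CpG ratio of at least 0.6, where it too went the other way. A match is a stretch of letters and not shown to be a bound site.

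**Figure D2:**
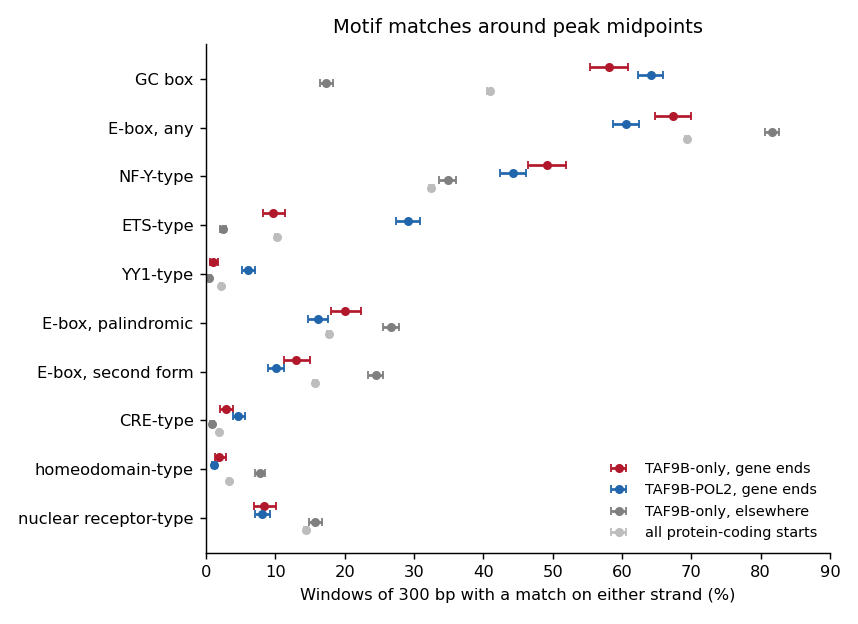
Percent of 300 bp windows with at least 1 match on either strand, with 95% Wilson intervals, for TAF9B-only ends (n = 1255), TAF9B-POL2 ends (n = 2599), TAF9B-only peaks elsewhere (n = 5684) and all protein-coding starts (n = 69974). With CAGCTG drawn as the palindromic E-box and CATCTG as the second form, the widest gap between the classes at gene ends is that of the ETS-type site, 9.64% against 29.1%.

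The difference in the ETS-type site was also seen among promoters of a like RNA level. Where the locus was above 10 FPKM in the EB day 6 library labelled WT, CCGGAAG was present at 15.9% of TAF9B-only ends (12.7 to 19.7, n = 415) and 32.8% of TAF9B-POL2 ends (30.6 to 35.0, n = 1753). Between 1 and 10 FPKM the shares were 7.72% (5.68 to 10.4, n = 492) and 23.4% (20.5 to 26.6, n = 736). At or below 1 FPKM they were 4.89% (3.07 to 7.68) and 8.18% (4.36 to 14.8), with intervals that overlap. Among CpG-rich windows (ratio of at least 0.6) they were 11.1% (9.14 to 13.3) and 31.8% (29.9 to 33.7), and among starts on 1 strand alone 9.48% and 27.7%. The share was thus lower at TAF9B-only ends in each of these strata, and the intervals did not overlap above 1 FPKM or among CpG-rich windows. Within the TAF9B-only ends, the 121 windows with CCGGAAG belonged to loci with a median of 11.4 FPKM and the other 1134 to loci with a median of 3.65 FPKM. The 617 peaks with CCAAT had a median score of 103 and the 638 without it 85.7.

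The genes at TAF9B-only ends were expressed at intermediate levels. The rule splits the classes at gene ends by POL2 peaks, and POL2 gathers at active promoters. The rule can therefore itself set their RNA levels apart, and its part was not tested. The 1255 regions touched 1279 loci, which hold 1443 gene entries, since a locus of the table can bundle overlapping genes. At EB day 6 in the library labelled WT, 974 entries (67.5%, 65.0 to 69.9) were above 1 FPKM, with a median of 3.45 FPKM. Among the 1376 entries with TAF9B-only ends and no TAF9B-POL2 end the share was 66.6%, against 89.2% (88.1 to 90.3) of the 3053 entries with TAF9B-POL2 ends alone (median 14.2 FPKM) and 46.4% of the 18613 entries with neither (median 0.613 FPKM). The ChIP cells were of another line and a later day, so levels and peaks come from different cultures. The order of these 3 classes was the same in other libraries labelled WT. TAF9B-only entries above 1 FPKM were 61.6% at EB day 4, 75.1% in newborn spinal column and 74.9% in newborn spinal cord, TAF9B-POL2 entries 89.7%, 90.2% and 89.4%, and entries with neither 43.4%, 52.3% and 49.8%.

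The share of genes with a TAF9B-only end was highest at low to middle RNA levels, whereas that with a TAF9B-POL2 end was higher at each step of the level. The part of the split by POL2 peaks in this was not tested either. A TAF9B-only end was present at 1.64% of entries listed at 0 FPKM, 4.27% of those up to 0.1 FPKM, 8.56% between 0.1 and 1 FPKM, 9.44% (8.71 to 10.2) between 1 and 10 FPKM, 7.05% between 10 and 100 FPKM and 3.86% (2.85 to 5.22) above 100 FPKM. A TAF9B-POL2 end was present at 1.91%, 1.99%, 5.83%, 16.5%, 26.6% and 33.9% (31.1 to 36.9) of the same entries. The peak score did not follow the RNA level: over the 1055 TAF9B-only ends with 1 locus and 1 gene, the Spearman correlation of score and FPKM was 0.03, a description of points that share 1 ChIP and 1 RNA library.

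**Figure D3:**
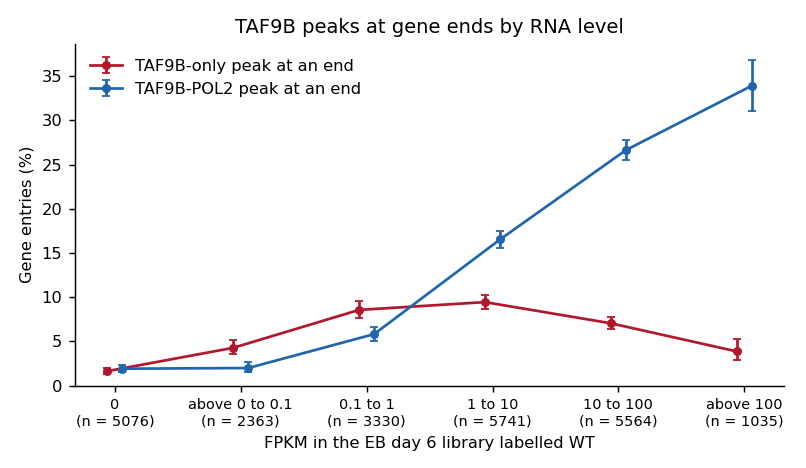
Percent of gene entries with a TAF9B-only or a TAF9B-POL2 peak at an end, by FPKM in the EB day 6 library labelled WT, with 95% Wilson intervals and the number of entries under each bin. The TAF9B-only share is highest between 1 and 10 FPKM (9.44%) and is 3.86% above 100 FPKM, where the TAF9B-POL2 share is 33.9%.

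Some of the most abundant transcripts were nevertheless those of loci with a TAF9B-only end. The 10 highest in the EB day 6 library labelled WT ran from 224 to 570 FPKM and were Hat1 (a histone acetyltransferase), Uba1 (the ubiquitin-activating enzyme), Dad1, C1qbp, Nudc, Gpi1 (a glycolytic enzyme), Pcna, Fbl (fibrillarin, of the nucleolus), Psmb5 (a proteasome subunit) and Ifitm2. A POL2 peak lay within 1000 bp of 2 of these regions, 44.0 bp from that of Dad1 and 193 bp from that of Pcna. None of the 10 differed past 2-fold between the EB day 6 libraries, the largest fold being 1.37.

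Read by function, the list of proneural bHLH factors stood out by its share, with 6 of 19 genes at TAF9B-only ends (31.6%, 15.4 to 54.0) and 0 of 19 at TAF9B-POL2 ends, against 6.31% and 13.7% of all 22850 gene names. The lists were drawn up with earlier results of these data known, so the shares are descriptions. The 6 genes were Neurog2, Neurod1, Ascl2, Atoh1, Atoh7 and Ptf1a, with scores from 51.7 to 149. A place in the list does not show a neural role in these cultures. Ascl2 was at 3.93 FPKM under the label WT and 16.5 under the label KO at EB day 6, against the direction of the neuronal markers. The Neurog2 peak, chr3:127335508-127335772, was centred 413.5 bp upstream of the start and 79161 bp from the nearest POL2 peak, and that of Neurod1, chr2:79296797-79296954, was centred 33.0 bp downstream of the start and 178065 bp from the nearest POL2 peak.

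Neurog2 was listed at 0 FPKM in both ES libraries and at EB day 2 under the label WT. It was at 0.0570 FPKM at EB day 2 labelled KO, then at 15.8 (labelled WT) and 1.62 (labelled KO) at EB day 4 and 44.3 and 0.219 at EB day 6. It was at 0.243 and 0 in newborn spinal column and 0.357 in newborn spinal cord. The gene was thus present mainly at EB days 4 and 6 under the label WT, the stage nearest to the ChIP cells. Neurod1 was at 2.27 and 2.29 FPKM in ES cells (labelled WT and labelled KO), 2.95 and 4.91 at EB day 2, 5.72 and 2.94 at EB day 4, 9.30 and 1.16 at EB day 6, 0.576 and 0.634 in spinal column and 2.36 in spinal cord. Atoh1, Atoh7 and Ptf1a, the factors of other neural lineages, were at 0.116, 0.261 and 0.335 FPKM at EB day 6 labelled WT, below the 1 FPKM used for expression, so 3 of the 6 regions lay at genes with little RNA.

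Other regulators of neural identity with TAF9B-only ends were, among 21 motor neuron and LIM factors, Isl1 and the LIM-only gene Lmo1 (9.52%, 2.65 to 28.9), and, among 27 progenitor domain factors, Olig1, Nkx2-2, Msx1 and Msx2 (14.8%, 5.92 to 32.5). Isl1 was at 0.0707 and 0.1005 FPKM in ES cells, 0.244 and 0.228 at EB day 2, 0.301 and 0.281 at EB day 4, 11.0 and 0.549 at EB day 6, 7.57 and 5.12 in spinal column and 2.91 in spinal cord. The EB day 6 library labelled WT was therefore the highest of the 11. Its region, chr13:117099869-117100077, was centred 76.5 bp upstream of the start, and the nearest POL2 peak was 712884 bp away. The signal pathways of this tissue gave Gli2, Rxrg, Aldh1a1 and Aldh1a3 among 30 Sonic hedgehog and retinoic acid genes (13.3%, 5.31 to 29.7), and Mfng and Hes7 among 28 Notch genes (7.14%, with TAF9B-POL2 ends at 4). Among 25 interneuron factors they were Gata2 and Prdm12 (8.00%). The intervals of these 5 lists all include the 6.31% of all gene names. The region at Nkx2-2 and that at Prdm12 lay at the 3′ end of the gene.

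Genes of mature neurons were a further group. Of 36 ion channel and transmitter genes, 6 had TAF9B-only ends (16.7%, 7.87 to 31.9) and 2 had TAF9B-POL2 ends. Among the 6 were the potassium channel Kcna1, the glutamate receptor subunits Grin1 and Grin2b, the GABA receptor subunit Gabra2 and the nicotinic receptor subunit Chrna4. Only Chrna4 was above 1 FPKM at EB day 6 labelled WT (9.21 FPKM), whereas all 6 were above 1 FPKM in newborn spinal cord, from 1.56 to 48.5 FPKM. The tables were normalised apart, so levels are compared between them only loosely. The regions at these genes were thus called in cultures of a kind whose day 6 RNA held little of 5 of the 6 transcripts. Among 29 pan-neuronal genes, 2 had TAF9B-only ends (6.90%, near the 6.31% of all gene names) and 5 had TAF9B-POL2 ends (17.2%). The 2 were Ncam1 and Celf4, and both had a POL2 peak within 1000 bp, 592 and 688 bp away.

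Among the housekeeping groups 3 lists had none, and the part of the split by POL2 peaks in this was not tested. TAF9B-only ends were found at 0 of 85 cytosolic ribosomal protein genes (upper bound 4.32%) and 0 of 39 genes of the respiratory chain and ATP synthase (upper bound 8.97%, which includes the 6.31% of all gene names), where TAF9B-POL2 ends were found at 33 (38.8%) and 15 (38.5%). They were found at 0 of 97 small nucleolar RNA genes (upper bound 3.81%) against 49, most of these RNAs being entries inside the locus of a host gene. TFIID subunits had 1 of 18 (Taf12, at its 3′ end) against 10, and Mediator and POL2 subunits 3 of 39 (Med9, Med30 and Polr2l) against 11. These last shares, 5.56% and 7.69%, were near the 6.31% of all gene names. DNA replication and cell division had 6 of 39 (15.4%, 7.25 to 29.7) against 12: Pcna, Pola1, Ccnb2, Plk1, Bub1b and Kif23. These 6 were all above 1 FPKM at EB day 6 labelled WT, between 6.55 and 341 FPKM.

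The large families varied around the 6.31% of all gene names. TAF9B-only ends were present at 36 of 381 genes named Zfp (9.45%, 6.90 to 12.8, against 28.6% with TAF9B-POL2 ends), 30 of 376 solute carriers (7.98%, against 11.4%) and 4 of 39 Hox genes (Hoxa10, Hoxb13, Hoxd1 and Hoxd10). Pluripotency genes gave 2 of 25, Klf5 and Tbx3, and SAGA and ATAC subunits 2 of 27, Taf6l and Taf12. The 18 microRNA entries, of 517, lay in loci shared with other genes in 13 cases, and 17 were listed at 0 FPKM, so the region can belong to the host gene. No TAF9B-only end was found among 31 Polycomb and trithorax genes, 28 mesoderm, endoderm and vascular factors, 23 germ line genes, 49 keratins, 23 protocadherins or 1097 olfactory receptors (upper bounds 11.0%, 12.1%, 14.3%, 7.27%, 14.3% and 0.349%), and of these lists only the Polycomb and trithorax genes had TAF9B-POL2 ends (3 of 31).

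**Figure D4:**
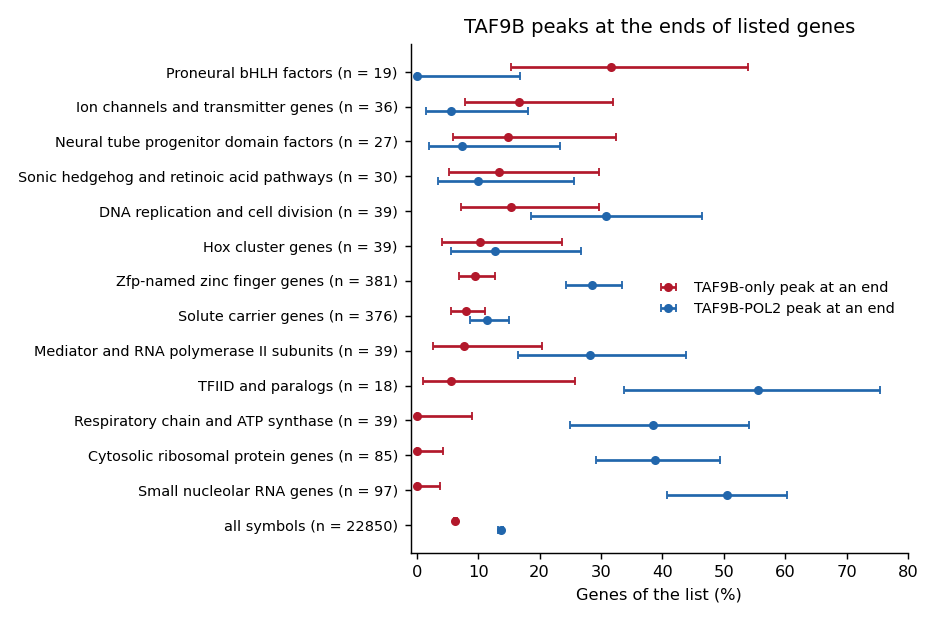
Percent of the genes of each list drawn, and of all gene names, with a TAF9B-only or a TAF9B-POL2 peak at an end, with 95% Wilson intervals and the number of genes found in the table. Proneural bHLH factors are at 31.6% and 0%, and cytosolic ribosomal protein genes at 0% and 38.8%.

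Of the 20 highest-scoring regions, 2 lay at genes of these lists, Taf6l and Zfp235. The 20 highest-scoring TAF9B-only ends had scores from 321 to 678, an annotated start within 500 bp in 18 cases, and 24 gene entries, of which 15 were above 1 FPKM at EB day 6 labelled WT and 5 above 10 FPKM. They were led by Ccdc85a (chr11:28483962-28484516, score 678), Rpgrip1l and Fto (chr8:93837063-93837526, score 522), Sertm1 (520), Ptpn18 (430), Mocs1 (426), Mef2b (409), Epop (395), Parm1 (388) and Zfp235 (386). Mocs1 acts in molybdenum cofactor synthesis, Rpgrip1l at the base of the cilium, and Epop is a partner of Polycomb complex 2. Lmcd1, Sh3bp5, Brinp2, Sdccag8, Pla2g15, Taf6l, Ivd, Adamts17, Sapcd2, 1700086L19Rik and Ccdc30 completed the 20. Ccdc85a was at 0.595 and 1.58 FPKM at EB day 6 (labelled WT and labelled KO) and 8.17 FPKM in spinal cord, and Fto, which shares the second region with Rpgrip1l, was at 28.2 and 26.1 FPKM. Ccdc85a, at the region with the highest score, thus had more RNA in spinal cord than in the day 6 cultures. The region of Taf6l, a subunit of SAGA, had no GENCODE start or 3′ end within 500 bp, and that of Sdccag8 lay 138 bp from a POL2 peak.

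The RNA libraries were compared by label, and given the levels of Taf9b above, a difference between them cannot be read as dependence on TAF9B. In these comparisons the TAF9B-only entries include those that also had a TAF9B-POL2 end. At EB day 6, 1025 entries with TAF9B-only ends passed 1 FPKM under either label and were compared. Of these, 115 (11.2%, 9.43 to 13.3) were lower past 2-fold under the label KO, against a background of 9.91% of all 12996 entries, and 109 (10.6%, 8.89 to 12.7) were higher, against 10.5%. The background lay within both intervals. The median log2 ratio was 0.06, and -0.003 over all entries. Entries with TAF9B-POL2 ends alone were lower in 7.65% (6.72 to 8.70) and higher in 2.47% (1.95 to 3.11), so the TAF9B-only entries were nearer to genes at large than to that class. The classes also differed in level, with a median of 7.58 FPKM under the label WT for the TAF9B-only entries compared, 17.0 for the TAF9B-POL2 entries and 10.3 for all, and the part of the level in the shares was not tested. Without the filter on low values, 13.99% were lower and 12.5% higher, beside 12.1% and 14.8% of all entries, so the members were then above the background for lower entries and below it for higher ones. Adding 1 FPKM to both values gave 7.12% lower and 6.44% higher, beside 7.002% and 6.33% of all entries.

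Among entries above 1 FPKM under both labels, the 10 furthest below their WT-labelled value were 6.18-fold to 13.1-fold lower. They were Rufy3 and Dpysl5, genes of axon growth, the Notch modifier Mfng, Neurod1, the sodium pump regulator Fxyd6, Chrna4, Trp53i11, Fgfbp3, Ncam1 and the potassium channel Kcnn1. Mfng was at 4.45 and 4.19 FPKM in ES cells (labelled WT and labelled KO), 3.11 and 2.03 at EB day 2, 11.9 and 2.84 at EB day 4, 30.5 and 2.80 at EB day 6, 3.89 and 6.75 in spinal column and 1.87 in spinal cord. Rufy3 was at 25.2 and 1.93 FPKM at EB day 6, Ncam1 at 25.4 and 3.77, and Trp53i11 at 147.7 and 20.1. All 10 had at least 6.55 FPKM under the label WT. Neurog2 was not among them because it was below 1 FPKM under the label KO. A POL2 peak lay within 1000 bp of 2 of the 10 regions, 195 bp from that of Fgfbp3 and 592 bp from that of Ncam1. Of the 10, 4 were already lower past 2-fold at EB day 4 (Mfng, Fxyd6, Dpysl5 and Trp53i11), and 1, Fxyd6, also in ES cells (25.1 and 12.3 FPKM) and at EB day 2 (38.0 and 16.9 FPKM). Over all entries the shares lower past 2-fold were 4.44% at EB day 4, 0.591% in ES cells and 1.37% at EB day 2. In newborn spinal column 3 of the 10, Chrna4, Dpysl5 and Ncam1, were lower past 2-fold and none was higher, against 8.54% and 9.05% of all entries.

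The 10 entries furthest above their WT-labelled value were 3.93-fold to 5.78-fold higher. They were Prrg4, Manba (a lysosomal mannosidase), Vgll3, H2-Eb1 (a class II histocompatibility gene), Tnfrsf12a (a TNF receptor), Cth (cystathionine gamma-lyase), Ascl2, Pmaip1 (the apoptosis gene Noxa), Klf5 and Msx2. All 10 were also higher past 2-fold at EB day 4, against 12.1% of all entries. Klf5, a factor of pluripotent cells, was at 76.1 and 72.0 FPKM in ES cells, 37.9 and 45.8 at EB day 2, 2.19 and 10.8 at EB day 4, 9.19 and 38.0 at EB day 6, 9.62 and 10.5 in spinal column and 4.87 in spinal cord. Ascl2 was at 2.05 and 3.09, 4.003 and 11.1, 0.520 and 4.82, and 3.93 and 16.5 FPKM at the cultured stages in the same order. It was thus higher under the label KO at each stage, and within the proneural list it went against Neurog2 and Neurod1. These differences moved with the markers of neurons, pluripotent cells and epithelium given above, and with 2 of the 3 endothelial genes but not Kdr. The part of those cells in the differences was not tested.

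**Figure D5:**
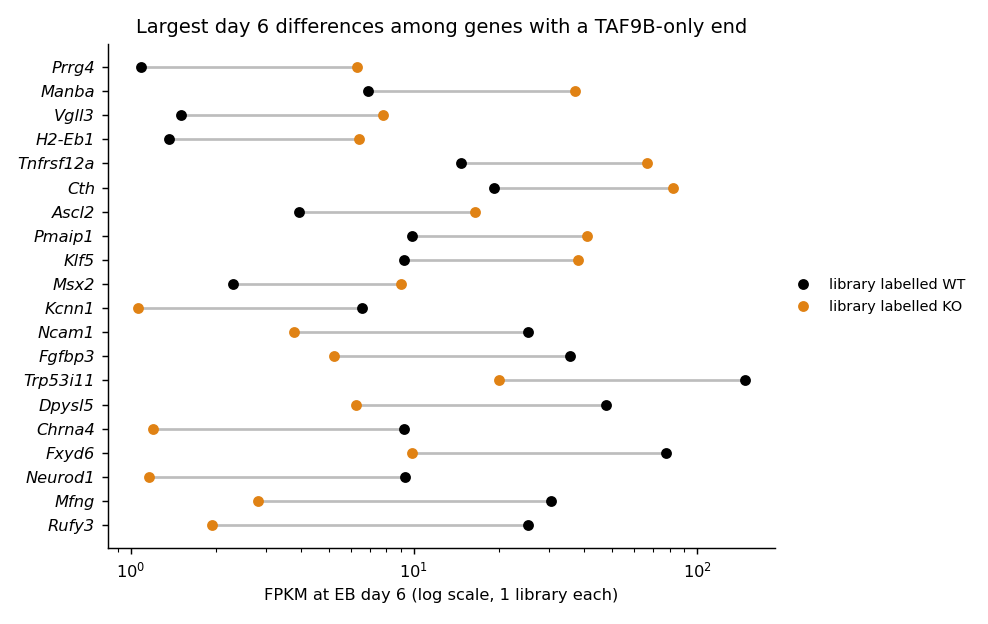
FPKM on a log scale at EB day 6 of the 10 genes furthest below and the 10 furthest above their WT-labelled value, among entries with TAF9B-only ends above 1 FPKM under both labels, with 1 library for each point. The lower genes lie between 6.55 and 147.7 FPKM under the label WT, and the higher genes between 1.09 and 19.2 FPKM.

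The other pairs were read against the same backgrounds. In ES cells 0.535% of 935 entries were lower and 0.214% higher past 2-fold (background 0.591% and 0.541%). At EB day 2, 1.95% were lower and 0.976% higher (background 1.37% and 1.19%). At EB day 4, 4.24% were lower and 14.1% (12.1 to 16.5) higher (background 4.44% and 12.1%, the latter at the lower bound of the interval), where TAF9B-POL2 entries were higher in 3.86% (3.20 to 4.64). In newborn spinal column, 10.4% (8.79 to 12.4) were lower and 6.99% (5.65 to 8.63) higher (background 8.54% and 9.05%). Both intervals leave out the background there, with more entries lower than higher against the reverse over all genes. Entries with no TAF9B peak at an end had 9.45% lower, within the members' interval, and 9.69% higher, above it. TAF9B-POL2 entries had 4.38% lower and 7.54% higher. In spinal column the neuronal markers were at a summed 725 FPKM under the label WT and 457 under the label KO, with 3 of 6 lower past 2-fold. Motor neuron markers were at 35.1 and 17.9, progenitor markers at 12.97 and 7.68, astrocyte markers at 48.2 and 29.5 and those of simple epithelium at 5.64 and 14.4, and the part of these cells was not tested. Within the libraries labelled WT, 36.0% (33.3 to 38.8) of the TAF9B-only entries, those with both kinds of end included, were higher past 2-fold in the newborn spinal cord library relative to ES cells. This was against 30.4% of all entries, 33.1% of entries with no TAF9B peak at an end and 18.5% (17.2 to 20.01) of TAF9B-POL2 entries. The shares lower past 2-fold were 35.3%, 35.7%, 34.8% and 38.9% in the same order. From ES cells to EB day 6, in tables normalised apart, 22.7% were higher, against 23.1% of all entries and 20.02% of TAF9B-POL2 entries, and 15.1% (13.1 to 17.4) were lower, against 15.1% and 8.63% (7.64 to 9.73).

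The 101 TAF9B-only ends without a start nearby differed from the regions at starts. Their windows held CCAAT in 38.6% and GGGCGG in 20.8% (14.0 to 29.7), against 50.1% and 61.4% (58.6 to 64.2) of the 1154 regions at starts. CAGCTG was present in 32.7% (24.3 to 42.3), against 19.0% (16.8 to 21.3) at starts, and a CpG ratio of at least 0.6 in 21.8% against 73.3%. In these motifs and in CpG content they were nearer to the TAF9B-only peaks elsewhere than to the regions at starts, whereas TATAAA, at 4.95%, was nearer to the 3.90% at starts than to the 10.2% elsewhere. The 71 of them at 3′ ends had a median score of 77.8, and 59.5% of their entries were above 1 FPKM at EB day 6 labelled WT, against 69.1% at starts. The 30 with neither end nearby had a median score of 100.2, above the 92.5 at starts, and 30.8% of their entries were above 1 FPKM.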

How the data were processed

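RNA-seq and ChIP-seq values were used as deposited. Reads were aligned to mm9 with TopHat (RNA) or Bowtie (ChIP), the RNA was quantified with Cuffdiff and the peaks were called with MACS, per the labels and the study's methods, with versions not given in the sources used here. The FPKM values per gene, 1 column per library, were made by the authors from poly-A libraries. The score of each peak was deposited in the fifth column of the peak files, 1 file per antibody. Neither kind of file gives read counts, so depth is unknown. The deposited p-values, q-values, test statistics and fold changes of the RNA tables were not used.

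All comparisons were made with Python 3.11.15, pandas 2.3.3, numpy 2.4.6 and scipy 1.17.1, and figures with matplotlib 3.10.9. Overlap meant at least 1 shared base. All 10402 TAF9B peaks on assembled chromosomes lay within the mm9 chromosomes, and 73.4% of the loci had an end exactly at a GENCODE M1 transcript end. Table rows were joined on their first RefSeq accession and locus, and 13 pairs listed more than once were left without a value. Symbols came from RefSeq accessions (22801 of 23122 entries). A difference counted past 2-fold, for entries above 1 FPKM in at least 1 library, with no pseudocount. Each group is 1 library, so no p-value was computed. The overlap and fold steps were tested on simulated data. Genes were named as the 20 highest scores, the members of the gene lists, the 10 largest differences each way at EB day 6, the 10 highest FPKM and the regions at each threshold. The listed Zfp, solute carrier and microRNA genes are given as counts, and some listed genes are not reported here. The members, gene lists and motifs were chosen with earlier results of these data known, and the 2 ribosomal protein stretches after their sequences were seen.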

Additional observations from a re-analysis of the deposited data

Results flagged for a closer look

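For 2 of the named genes the library labelled KO differed past 2-fold from the library labelled WT in opposite directions at EB day 6 and in newborn spinal column, each with 1 library a group, and the difference between them was not tested. The log2 ratio of Lmo1, a LIM-only regulator, was -1.29 at EB day 6 and 1.12 in spinal column. That of Slc7a1, a cationic amino acid transporter, was 1.02 at EB day 6 and -1.07 in spinal column.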

How the results depend on the processing

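No paired analysis was possible because each group holds 1 library and no test was made. Of 57 values recomputed under other settings, 43 moved by less than their 95% interval (for the number of regions, by less than 1.5-fold), the 11 medians of the log2 ratio among them. With midpoints within 250 bp of an end the median score was 96.2 and the share with a POL2 peak within 1000 bp 4.16%, and within 1000 bp of an end that share was 8.51%. Without regions that had a POL2 peak within 500 bp it was 0.923%, by construction. Above the median score of all TAF9B peaks, 713 regions were left, with a median score of 131, by construction, and 4.49% near POL2. The share above the RNA threshold was 87.2% at 0.1 FPKM and 43.5% at 5 FPKM. With 1 FPKM added, the shares under the label KO were 7.12% lower and 6.44% higher. Without a filter 13.99% were lower and 12.5% higher, beside 12.1% and 14.8% of all entries, and with both libraries above 1 FPKM 8.81% were lower and 8.60% higher, beside 7.15% and 7.71%. Keeping loci of 1 gene entry, a setting chosen after seeing the data, gave 10.6% lower and 11.4% higher, beside 9.51% and 10.9% of all entries. The cause of the other changes was not tested. With no read counts and no replicates, neither the depth of a peak nor the spread of an FPKM value is known.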
